A study of Mus musculus with 9 samples.

Results

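Toll-like receptors (TLRs) are sensors of microbial lipids, proteins and nucleic acids, and their transcripts were examined here in alveolar macrophages, the resident phagocytes of the airspaces. The set held 10 of the 27179 genes counted: the receptors Tlr2, Tlr3, Tlr4, Tlr7 and Tlr9, the adaptors Myd88, Tirap, Ticam1 and Ticam2, and Wdfy1. The genes were chosen by function after results of this comparison were known, and with the knockout against wild type difference of Wdfy1 in these same counts in view. The knockout values of the 10 genes are therefore a description and carry no p-value. Whether a gene passed the threshold of the fit over all genes is stated on the same footing, and nothing is supported with it. RNA from sorted alveolar macrophages of mouse lung was sequenced in 9 libraries of polyadenylated RNA, all from mice aged 1 week on a C57BL/6 background. The wild type group held 4 libraries, and the group with a conditional knockout of Suz12 (Suz12 cKO in the labels) held 5. Suz12 encodes an essential part of PRC2, the Polycomb complex that methylates histone H3 and holds genes in a repressed state. The sources used here do not give the Cre driver, the deleted exons, the sorting gate, the sex of the mice or any pooling of animals. The libraries of a group are called biological replicates by the series, and p-values measure the spread between them.

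TLRs fall into a surface group, such as TLR2 for bacterial lipopeptides and TLR4 for lipopolysaccharide, and an endosomal group, such as TLR3 for double-stranded RNA, TLR7 for single-stranded RNA and TLR9 for CpG DNA. MyD88 carries the signal of all of these except TLR3 to NF-kB, and TIRAP bridges it to TLR2 and TLR4. TRIF, encoded by Ticam1, serves TLR3 directly and TLR4 through TRAM, encoded by Ticam2, and leads to IRF3 and type I interferon. WDFY1 is an endosomal protein with WD40 repeats and a FYVE domain that binds phosphatidylinositol 3-phosphate, and it has been described as a factor that brings TRIF to TLR3 and TLR4.

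Totals ranged from 13814799 to 25284693 counts in wild type and from 18584016 to 45606001 counts in knockout. All 10 genes passed the filter on low counts, which left 12840 genes. The fewest counts of any member in 1 library were 37, for Tlr9 in wild type, and the fewest for Wdfy1 were 518 in wild type and 128 in knockout. At equal depth 12396 to 13294 genes were detected in wild type and 14634 to 15790 in knockout (two-sided exact permutation p = 0.0159, the smallest this design allows). Levels are given as CPM, counts scaled to library depth, after TMM scaling, which sets the libraries to a common scale. Suz12 fell from a wild type mean of 66.6 ± 10.7 CPM (SD, n = 4) to 16.0 ± 4.11 CPM (SD, n = 5). Its log2 fold change was -2.06, with an SE of 0.18 (adjusted p = 1.69e-05, edgeR's quasi-likelihood test with Benjamini-Hochberg adjustment). All 16 alveolar macrophage markers were detected, with a summed level of 26700 to 65200 CPM in wild type against 19200 to 45800 CPM in knockout (exact permutation p = 0.333). Chil3 carried that sum, at 13700 to 50800 and 5450 to 32200 CPM. Of the 16 markers 3 were called lower by edgeR (Car4, Krt79 and Fabp5) and 1 higher (Marco). These were 18.8% and 6.25% of the markers, against 11% and 8.97% of all tested genes. Car4 was at 1070 to 1370 CPM in wild type against 317 to 804 CPM in knockout. Knockout library 3 stood apart for several of the markers, with Itgax at 641 CPM against 1730 to 2560 CPM in the other knockout libraries. The libraries also split by Xist, the transcript of the inactive X chromosome. It was at 336 to 449 CPM in wild type libraries 1 to 3 and at 397 and 360 CPM in knockout libraries 2 and 5, and below 1 CPM in the other 4 libraries. Fold changes followed gene length: the median log2 fold change was -0.42 in genes of 62 to 970 bases and between 0.026 and 0.15 in the length classes of equal size that held the 10 genes.

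Wdfy1 showed the largest difference of the 10 genes. Wdfy1 (Entrez Gene 69368) lies on the minus strand of chromosome 1, at 79702262 to 79776143 of GRCm38, and its counted exons add up to 4714 bases. It was at 42.1, 43.3, 41.2 and 44.3 CPM in wild type libraries 1 to 4. In knockout libraries 1 to 5 it was at 6.78, 9.43, 6.52, 6.63 and 9.19 CPM. Every knockout library was below every wild type library. Means were 42.7 ± 1.35 CPM in wild type (SD, n = 4) and 7.71 ± 1.47 CPM in knockout (SD, n = 5), and the fitted log2 fold change was -2.47 (SE 0.15, 95% interval -2.78 to -2.15). The fitted knockout level was 18.1% of the wild type level, so the transcript was reduced and not lost. Among all 12840 tested genes 11 had a lower log2 fold change, and among the 10817 whose mean log2 CPM was 1 or more 4 did.

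Wdfy1 varied little within wild type. Its coefficient of variation over the 4 wild type libraries was 3.16%, where the median of all tested genes was 18.9% and 0.958% of them had a lower one. In knockout it was 19.0%, against a median of 12.4%. The knockout values were higher in libraries 2 and 5, the knockout libraries with high Xist, than in libraries 1, 3 and 4. Within the libraries with high Xist, Wdfy1 was at 41.2 to 43.3 CPM in 3 wild type and 9.19 to 9.43 CPM in 2 knockout libraries. Within those with low Xist it was at 44.3 CPM in 1 wild type library and 6.52 to 6.78 CPM in 3 knockout libraries. The direction was therefore the same in both classes, with log2 ratios of mean CPM of -2.18 and -2.74. With the Xist level as a covariate the log2 fold change was -2.40, and without knockout library 3 it was also -2.40.

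**Figure D1:**
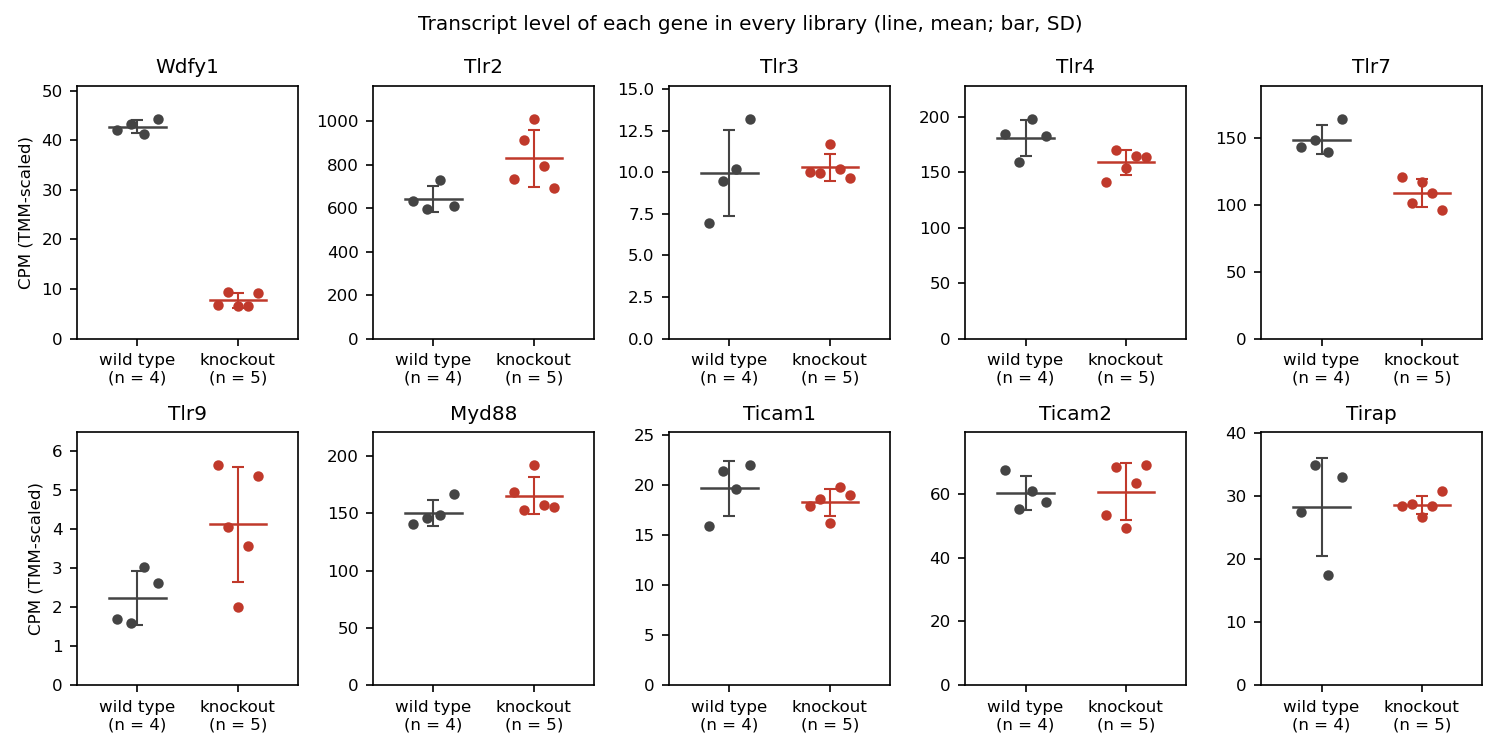
TMM-scaled CPM (y axis, from 0) of the 10 genes in each of the 4 wild type and 5 knockout libraries. Points are libraries, lines are means and bars are SD. The groups do not overlap for Wdfy1 (41.2 to 44.3 against 6.52 to 9.43 CPM) and Tlr7 (139 to 164 against 96 to 121 CPM).

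The chromosomal neighbours of Wdfy1 did not share its change in size. Of 6 counted genes within 500 kb, 3 passed the filter. Mrpl44, a protein of the large mitochondrial ribosomal subunit, starts head to head with Wdfy1 on the plus strand, and the annotated spans share a short exonic stretch. Reads in that overlap cannot be assigned to a strand, since the sources used here do not give the strand setting of the counting. Mrpl44 was at 22.5, 29.4, 28.5 and 40.4 CPM in wild type against 20.7, 21.0, 19.1, 21.8 and 21.5 CPM in knockout, so the groups did not overlap. Its log2 fold change of -0.54 had an SE of 0.15 (adjusted p = 0.0231, edgeR), and it was not called without wild type library 4 or knockout library 1 (adjusted p = 0.0843 and 0.0513) after a correction for gene length (-0.34, adjusted p = 0.162) or with scaling by library totals (0.0655). Ap1s3, a clathrin adaptor subunit 30244 bases beyond the 3′ end of Wdfy1, had a log2 fold change of 0.67 (95% interval -0.04 to 1.38) and was not called. Cul3, the scaffold of a ubiquitin ligase 488780 bases away on the other side, rose from 83.3 ± 7.22 to 104 ± 5.89 CPM (0.32 on the log2 scale, SE 0.09, adjusted p = 0.0169, edgeR, but 0.0525 without wild type library 4). Of the neighbours called, 1 was thus lower and 1 higher, and the 95% intervals of all 3 tested neighbours lay above that of Wdfy1. Because Wdfy1 was listed with its difference in view, this comparison with its neighbours is a description only.

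**Figure D2:**
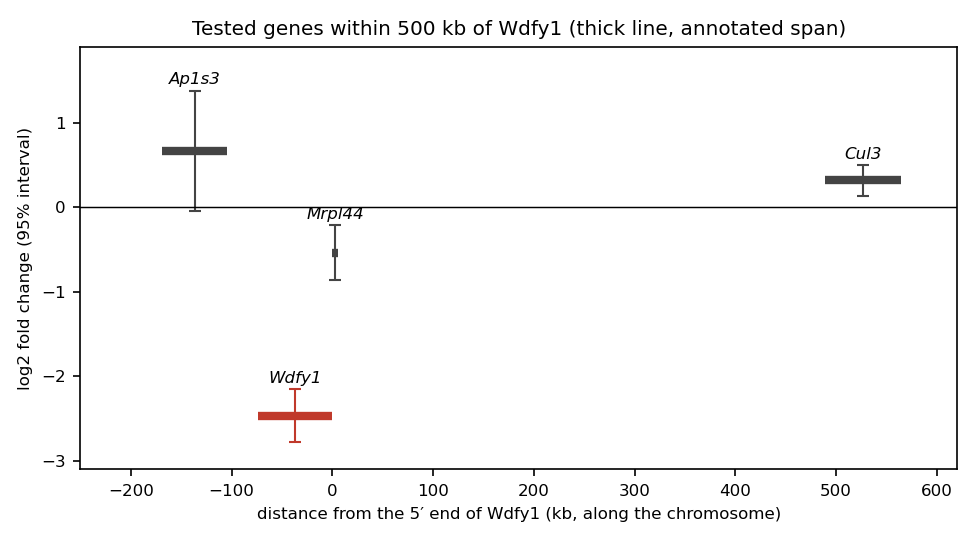
Log2 fold change (y axis, knockout minus wild type, thin bars are 95% intervals) of Wdfy1 and the 3 tested genes within 500 kb, drawn as thick lines over their annotated spans by distance in kb from the 5′ end of Wdfy1 (x axis). Wdfy1 lies at -2.47, Mrpl44 at -0.54, Ap1s3 at 0.67 and Cul3 at 0.32.

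The genes whose levels followed Wdfy1 most closely were others with a step between the groups. Over the 9 libraries and 10207 other genes, the highest Pearson correlations of log2 CPM were with the nuclear noncoding RNA Malat1 (0.972), Plp2 (0.969), the sodium-proton exchanger Slc9a4 (0.968), the C1q receptor-like protein Cd93 (0.968) and the nuclear envelope protein Syne1 (0.966). For all 5 the groups did not overlap, with the knockout libraries lower. With each group centred on its own mean, the correlations were 0.72, -0.28, 0.35, 0.075 and 0.65; Plp2 and Cd93 thus did not follow Wdfy1 within the groups. These are descriptions over 9 libraries that share their scaling.

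None of 3 genes of the same name family was called by edgeR, 1 had an unadjusted p under 0.05, and 1, Wdfy3, was called by DESeq2 and voom. Wdfy2, which shares the WD40 and FYVE layout, stood at 35.1 ± 9.57 CPM in wild type against 38.7 ± 9.86 CPM in knockout (SD, n = 4 and 5; log2 fold change 0.15, 95% interval -0.30 to 0.59). Wdfy4, a BEACH domain protein of antigen presentation, had a log2 fold change of -0.04 (interval -0.21 to 0.14). Wdfy3, an autophagy scaffold, was at 281 to 307 CPM in wild type against 214 to 276 CPM in knockout, without overlap. Its fitted difference of -0.25 on the log2 scale (SE 0.09, adjusted p = 0.0559, edgeR) missed the threshold, although it passed with DESeq2 (0.0171), voom (0.0415), RLE size factors (0.0436) and without knockout library 1 (0.0497). Of 15 genes of early endosomes and phosphatidylinositol 3-phosphate, 1 was called (6.67%, against 19.9% of all tested genes): Rufy1, a FYVE domain protein of endosomes, rose from 61.8 ± 11.4 to 82.2 ± 5.17 CPM (0.41, SE 0.12, adjusted p = 0.0249, but 0.0616 and 0.064 without wild type library 4 or knockout library 1 and 0.0569 with Xist as a covariate).

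Wdfy1 is also among the transcripts reported to differ between substrains of C57BL/6, and the labels give the background without a substrain. Of 4 other such genes that were counted, 0 were called by edgeR, DESeq2 or voom, and 0 had an unadjusted edgeR p under 0.05, where 19.9% of all tested genes were called. A substrain difference at Wdfy1 itself was not tested. Nnt, a mitochondrial transhydrogenase that carries a deletion in C57BL/6J, was at 33.5 to 51.6 CPM in wild type against 38.2 to 46.5 CPM in knockout (log2 fold change 0.08, 95% interval -0.20 to 0.36). Ide, an insulin-degrading protease, was at 61.3 ± 4.80 and 61.2 ± 5.23 CPM (SD, n = 4 and 5; log2 fold change -0.0054, interval -0.21 to 0.20). Entpd4 and Entpd4b, lysosomal nucleotidases with near-identical sequence whose counts are uncertain for that reason, had log2 fold changes of 0.25 and 0.06. The groups overlapped for all 4.

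As a description, 1 of the 10 genes lay past the threshold of the edgeR fit (adjusted p under 0.05) as higher and 2 as lower, that is 30% of them, where 19.9% of all tested genes were called (8.97% higher and 11% lower). Groups without overlap were seen for 2 of the 10, against 20.8% of all tested genes. Both were lower in knockout, as were 9.87% of all tested genes without overlap. The median log2 fold change of the 10 was 0.014, and that of all tested genes was 0.038. Because the comparison was in view when the genes were listed, nothing is read from these shares.

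Among the surface receptors, Tlr2 was somewhat higher in knockout. Tlr2 (chromosome 3, 83836272 to 83841824) was at 634, 595, 727 and 609 CPM in wild type against 735, 913, 1010, 793 and 694 CPM in knockout. The highest wild type value, in library 3, lay above the lowest knockout value, in library 5, so the groups overlapped. The log2 fold change was 0.37 (SE 0.11, 95% interval 0.13 to 0.60). It lay narrowly past the threshold, and did not without wild type library 1, 2 or 4 or knockout library 2 (log2 fold changes of 0.37, 0.34, 0.35 and 0.33) or with Xist as a covariate (0.37). Knockout library 3 held the most Tlr2, and without it the value was 0.30. In TPM the groups did not overlap for Tlr2 (362 to 402 in wild type and 531 to 708 in knockout).

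Tlr4 (chromosome 4, 66827551 to 66846581) did not pass the threshold. It was at 184, 159, 198 and 183 CPM in wild type against 141, 170, 154, 165 and 164 CPM in knockout. The groups overlapped through wild type library 2, and the log2 fold change was -0.19 (95% interval -0.38 to -0.0020). The ratio of Tlr2 to Tlr4 within a library, taken per length and so free of the scaling between libraries, was 4.48 to 5.03 in wild type and 5.72 to 8.77 in knockout, without overlap.

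Of the endosomal receptors, Tlr7 was lower in knockout. Tlr7 (chromosome X, 167303380 to 167330574) was at 143, 148, 139 and 164 CPM in wild type against 121, 101, 117, 109 and 96 CPM in knockout. Every knockout library was below every wild type library. Means were 148 ± 11.2 CPM in wild type (SD, n = 4) and 109 ± 10.7 CPM in knockout (SD, n = 5), with a log2 fold change of -0.45 (SE 0.09, 95% interval -0.64 to -0.25). Since Tlr7 is X-linked, its values were set out by Xist class. With high Xist it was at 139 to 148 CPM in 3 wild type and 96 to 101 CPM in 2 knockout libraries, and with low Xist at 164 CPM in 1 wild type and 109 to 121 CPM in 3 knockout libraries. In both groups the libraries with low Xist held the more Tlr7, and the difference between the groups was similar in both classes (log2 ratios of -0.54 and -0.50). With each library left out in turn its log2 fold change was -0.49 to -0.39. In TPM, an abundance per transcript length described with the levels of all 10 genes, the groups overlapped for Tlr7, at 58.4 to 75.8 in wild type and 56.0 to 69.6 in knockout.

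Tlr8, the X-linked neighbour of Tlr7 that belongs to the same subfamily, did not follow it. It was at 163, 158, 146 and 128 CPM in wild type against 151, 180, 138, 143 and 156 CPM in knockout (log2 fold change 0.05, 95% interval -0.16 to 0.26). The ratio of Tlr7 to Tlr8 per length was 0.739 to 1.08 in wild type and 0.472 to 0.715 in knockout, without overlap.

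Tlr3 and Tlr9 were the least abundant of the receptors in the set. Tlr3 (chromosome 8, 45395665 to 45411075) was at 6.94, 9.45, 10.2 and 13.2 CPM in wild type against 10, 9.97, 11.7, 10.2 and 9.63 CPM in knockout. The knockout values lay inside the wild type range, and the log2 fold change was 0.05 (95% interval -0.38 to 0.48). The coefficient of variation was 26.0% in wild type and 7.93% in knockout. Tlr9 (chromosome 9, 106222598 to 106226876) was at 1.69, 1.6, 3.02 and 2.61 CPM in wild type against 5.64, 4.07, 2.0, 3.57 and 5.37 CPM in knockout. All knockout libraries except library 3 lay above all wild type libraries. The log2 fold change was 0.90 (SE 0.39, interval 0.053 to 1.75) and did not pass the threshold, and without knockout library 3 it was 1.08. Tlr9 rested on 37 to 62 counts in each wild type library and 69 to 267 in each knockout library, and at equal depth its log2 fold change was 0.57.

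TLR9 is typical of B cells and plasmacytoid dendritic cells, so their markers were examined. All 5 B cell markers were detected in both groups, at a summed 4.08 to 17.7 CPM in wild type against 5.62 to 11.1 CPM in knockout (exact permutation p = 0.333). Of 5 plasmacytoid dendritic cell markers, 2 were detected in wild type and 5 in knockout, at a summed 0.2 to 2.86 and 0.988 to 9.01 CPM (p = 0.0794 by the exact permutation test, 0.233 adjusted over 11 lists). Any count made a marker detected, and the knockout libraries detected more genes of all kinds even at equal depth. Klk1 was seen only in knockout library 2 (0.0269 CPM). Ccr9 was at 0 in wild type, at 3.22 CPM in knockout library 5 and at 0.0518 to 0.296 CPM in the other knockout libraries. Siglech, the defining marker of these cells, was at 0 in every wild type library and at 0.0534 to 0.155 CPM in knockout. Cox6a2 was at 0 to 1.39 CPM in wild type against 0.748 to 6.76 CPM in knockout. Spib of the same list leaned the other way, at 0.2 to 1.75 CPM in wild type against 0 to 1.24 CPM in knockout. TLR3 is high in conventional dendritic cells of the cross-presenting type. The list examined was one of conventional dendritic cells in general (5 of 5 detected in both groups). It stood at 4.25 to 6.44 CPM in wild type against 2.11 to 5.69 CPM in knockout (exact permutation p = 0.111). Xcr1 was at 0 to 1.35 and 0 to 0.534 CPM, Clec9a at 0 to 2.24 and 0.207 to 1.02 CPM, and Cd209a at 1.1 to 3.89 and 0 to 0.794 CPM. Zbtb46 leaned the other way, at 0 to 1.35 and 0.935 to 2.91 CPM. In bulk samples fewer cells of a type and less RNA per cell cannot be told apart, and the part of these cells in the Tlr9 values was not tested.

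Of the other lists of cell types, 2 differed between the groups without overlap, at p = 0.0159 by the exact permutation test (0.0874 adjusted over 11 lists). The T and NK cell list was carried by Cd2, at 249 to 324 CPM in wild type against 29.6 to 129 CPM in knockout, while Cd3e, a defining T cell marker, was at 0 to 0.715 and 0 to 1.3 CPM. The endothelial list was carried by Calcrl, at 62.5 to 72.1 and 30.4 to 44.4 CPM, while Cdh5 was at 0 to 0.921 and 0.458 to 1.9 CPM. The lists of neutrophils, monocytes, interstitial macrophages, epithelium and fibroblasts overlapped between the groups and gave adjusted p of 0.233 to 0.492 by the same test. No value of the 10 genes was corrected for these lists.

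Sequence before a transcript start is shown for 4 members because PRC2 is known to act mostly at promoters rich in CpG dinucleotides, and because NF-kB and interferon-regulated factors control several TLR pathway genes. RefSeq entries (GRCm38.p6) matched 6 of the 10 genes: Tlr2, Tlr3, Tlr9, Myd88, Ticam1 and Tirap. Each line gives the 250 bases before a transcript start of that table, 5′ to 3′ on the gene's strand. In the first pair of sequences capitals mark CpG dinucleotides, and in the second pair they mark a motif match. The windows of Tlr9, Myd88 and Ticam1 lie outside the annotated gene span. That of Tlr2 lies inside it for 216 of its 250 bases, and those of Tlr3 and Tirap lie wholly inside it, since the span given for these genes begins at a start farther upstream.
Tlr2, chr3:83841609-83841858, minus strand: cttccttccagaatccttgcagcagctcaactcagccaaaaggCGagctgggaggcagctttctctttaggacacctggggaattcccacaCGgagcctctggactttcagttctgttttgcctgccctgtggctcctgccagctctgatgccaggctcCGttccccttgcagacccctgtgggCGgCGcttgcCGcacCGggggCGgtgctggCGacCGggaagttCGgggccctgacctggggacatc
Tlr9, chr9:106222348-106222597, plus strand: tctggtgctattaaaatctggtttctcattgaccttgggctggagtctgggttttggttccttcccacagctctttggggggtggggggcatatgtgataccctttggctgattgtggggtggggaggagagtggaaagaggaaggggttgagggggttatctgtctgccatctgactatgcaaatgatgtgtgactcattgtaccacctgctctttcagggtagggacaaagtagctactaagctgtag
Tlr3, chr8:45410381-45410630, minus strand: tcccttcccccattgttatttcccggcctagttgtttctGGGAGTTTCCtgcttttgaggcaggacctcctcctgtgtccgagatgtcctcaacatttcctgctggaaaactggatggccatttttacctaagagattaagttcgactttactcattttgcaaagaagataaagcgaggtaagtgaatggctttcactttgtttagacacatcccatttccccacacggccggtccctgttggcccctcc
Myd88, chr9:119340019-119340268, minus strand: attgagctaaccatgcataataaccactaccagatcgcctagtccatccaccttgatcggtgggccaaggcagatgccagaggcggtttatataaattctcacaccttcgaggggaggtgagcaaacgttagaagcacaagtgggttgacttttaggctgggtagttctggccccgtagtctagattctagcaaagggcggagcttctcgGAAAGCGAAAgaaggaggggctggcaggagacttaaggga

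The window of Tlr2 held 11 CpG dinucleotides and had a GC content of 62.8%. That of Tlr9, the receptor for CpG DNA, held 0 and had a GC content of 50.4%. The median over 32851 RefSeq promoters was 6 CpG dinucleotides and 52.4% GC. Tlr3 had 6, Myd88 and Ticam1 had 9 each, and the pair of annotated Tirap starts, whose windows overlap, had 17 and 21. The members examined thus ran from the lowest percentile (0) to percentile 83.7 of all promoters in CpG content. On either strand, a kappaB-type motif (GGGA, any pair of bases, then TTCC) was found once in Tlr3 and in 1.21% of all promoters. The Tlr2 window holds ggggaattcc, which is near this spelling but was not counted, so sites of other spellings can be missed. An interferon-response motif (GAAA, any pair of bases, then GAAA) was found once in Myd88 and in 2.98% of all promoters, and an AP-1 motif (TGANTCA) once in Tlr9 and in 6.75%. A PU.1 motif (GAGGAAGT), present in 2.44% of all promoters, was in none of the 7 member windows. These are matches of letters only.

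None of the 4 adaptors lay past the threshold. Myd88 (chromosome 9, 119335934 to 119340018) was at 141, 146, 149 and 167 CPM in wild type against 169, 153, 192, 157 and 156 CPM in knockout. The groups overlapped, and the log2 fold change was 0.13 (SE 0.09, 95% interval -0.06 to 0.33). It passed the threshold with libraries scaled by their totals alone (0.25). Knockout library 3 held the most Myd88, as it did Tlr2 and, within knockout, Tlr3, and without it the value was 0.08. In TPM the groups did not overlap for Myd88 (123 to 149 in wild type and 171 to 195 in knockout).

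Tirap, the sorting adaptor of TLR2 and TLR4 (chromosome 9, 35184391 to 35200291), was at 27.4, 34.8, 17.5 and 32.9 CPM in wild type against 28.3, 28.7, 26.7, 28.3 and 30.7 CPM in knockout. The knockout libraries were nearly alike, and wild type library 3, the shallowest of the 9, was low. The log2 fold change was 0.02 (95% interval -0.34 to 0.38), and without wild type library 3 it was -0.14. Ticam1, which encodes TRIF (chromosome 17, 56269462 to 56276767), was at 15.9, 21.4, 19.6 and 22.0 CPM in wild type against 17.9, 18.6, 16.2, 19.8 and 19.0 CPM in knockout. All knockout values lay inside the wild type range (log2 fold change -0.11, interval -0.40 to 0.18). Ticam2, which encodes TRAM (chromosome 18, 46558231 to 46574533), was at 67.5, 55.3, 61.0 and 57.4 CPM in wild type against 53.5, 68.4, 49.3, 63.6 and 69.0 CPM in knockout, again with overlap (0.01, interval -0.24 to 0.26). The intervals of Ticam1, the adaptor that WDFY1 has been described to recruit, and of Ticam2 lay above that of Wdfy1. This is a description, since Wdfy1 was listed with its difference in view.

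Levels can be compared between genes only per length. As TPM, a transcript abundance computed from counts and gene length, the order in wild type was Tlr2 (388 ± 18.5), Myd88 (137 ± 13.2), Tlr4 (81.3 ± 1.56), Tlr7 (68.8 ± 8.02), Ticam2 (32.0 ± 3.09), Wdfy1 (15.7 ± 1.6), Ticam1 (12.1 ± 2.16), Tirap (10.2 ± 3.41), Tlr3 (3.97 ± 0.992) and Tlr9 (1.10 ± 0.266, all SD, n = 4). The libraries overlapped between Wdfy1 and Ticam1 and between Ticam1 and Tirap, and between no other neighbours in that order. In knockout the order of the other 9 genes was the same. Wdfy1 moved from the sixth place to the ninth, at 3.47 ± 0.81 TPM (SD, n = 5), where its libraries overlapped with those of Tlr9 (2.54 ± 0.974 TPM). The TRIF adaptor was thus the scarcer one in both groups: Ticam1 stood at 0.076 to 0.0985 of Myd88 per length in wild type and 0.0568 to 0.0846 in knockout.

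On the TPM scale the median of the tested genes shifted upwards, and the members must be read against that shift. The log2 ratio of mean TPM, knockout over wild type, had a median of 0.32 over 12775 of the 12840 tested genes. On the TMM scale the median log2 fold change was 0.038 over all 12840. The log2 ratio of mean TPM was -2.2 for Wdfy1, -0.17 for Tlr7, 0.65 for Tlr2, 0.41 for Myd88 and 0.10 for Tlr4. The directions of Tlr4 and Ticam1 (0.17) thus differed between the scales, and so did the overlap of the groups for Tlr2, Myd88 and Tlr7. Relative to that median of 0.32, the values were -2.5 for Wdfy1, -0.48 for Tlr7, 0.34 for Tlr2, 0.096 for Myd88, -0.22 for Tlr4 and -0.14 for Ticam1. These lay close to the log2 fold changes of the TMM-scaled fit.

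**Figure D3:**
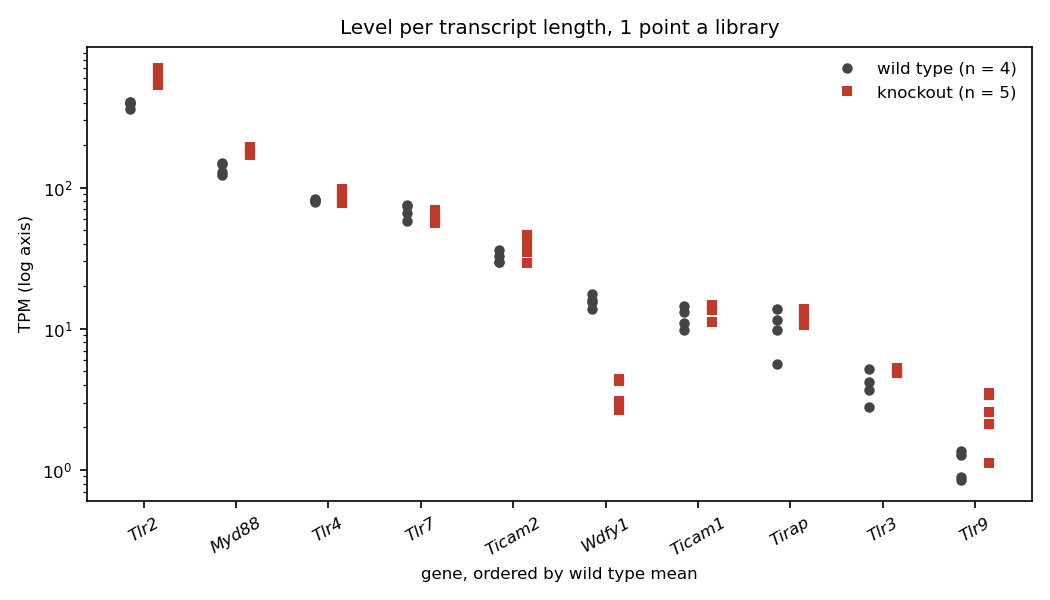
TPM (y axis, log scale) of the 10 genes, ordered by their wild type mean, with 1 point for each of 4 wild type (circles) and 5 knockout (squares) libraries. Tlr2 leads in both groups, and Wdfy1 is the gene that changes place, from 15.7 to 3.47 TPM.

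Among transcripts of all 12 counted TLRs, the share of each was computed per length within each library. Tlr2 made up 54.5 to 59.0% of TLR transcripts in wild type and 60.7 to 66.9% in knockout. Tlr7 made up 8.58 to 11.3% and 5.52 to 7.72%, and Tlr4 10.8 to 12.3% and 7.62 to 10.6%. The groups did not overlap for any of these 3 receptors. Tlr8 (10.5 to 13.1% and 8.31 to 12.3%) and Tlr13, a sensor of bacterial ribosomal RNA (4.89 to 6.73% and 3.8 to 6.48%), overlapped, and Tlr3 and Tlr9 each made up less than 1% in every library. Because shares sum to a whole, a larger share of the most abundant receptor lowers the others.

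The 10 genes varied together only in part. Over the 9 libraries the highest Pearson correlation between members was that of Wdfy1 and Tlr7 (0.84), both lower in knockout. With each group centred on its own mean it was -0.66, but the groups differed. In knockout, libraries 2 and 5, those with high Xist, held the most Wdfy1 (9.43 and 9.19 CPM) and the least Tlr7 (101 and 96 CPM). In wild type the order of the 4 libraries was the same for both genes, so more Wdfy1 went with more Tlr7. The next highest correlation over the 9 libraries was that of Tlr3 and Myd88 (0.715, and 0.74 within groups). Tlr4 was most like Wdfy1 (0.702, 0.36 within groups), Tlr2 most like Myd88 (0.578, 0.34), Ticam1 most like Tlr3 (0.488, 0.59), and Ticam2 most like Tlr4 (0.481, 0.65). For Tlr9 (with Ticam2) and Tirap (with Ticam1) the highest values were 0.283 and 0.268. Within groups the strongest correlations were of other pairs: Myd88 and Ticam2 (-0.84), Tlr7 and Ticam2 (-0.8), and Tlr7 and Myd88 (0.77). These are descriptions over 9 libraries with a shared scaling.

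Of 82 tested genes (of 92 listed) in 7 lists of TLR pathway genes other than the members, 18 were higher and 3 lower (22% and 3.66%, against 8.97% and 11% of all tested genes). Their median log2 fold change was 0.22, against 0.038 for all tested genes, and their median length was 2703 bases. The lists were written by function, with earlier results of these data known. After a length correction 16 were higher and 3 lower. Without knockout library 2 or wild type library 4 the higher genes numbered 10 and 11, and without wild type library 3 they numbered 27. The lower genes numbered 1 without wild type library 3 or 4 or knockout library 1 or 2.

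Other receptors and their helpers gave mixed results. Of 6 other tested TLRs 0 were called by edgeR, DESeq2 or voom and 0 had an unadjusted edgeR p under 0.05, and the most abundant of them was Tlr8, given above. Of 9 tested coreceptors and chaperones 1 was higher and 2 lower (11.1% and 22.2%, against 8.97% and 11% of all tested genes). Hsp90b1, the endoplasmic reticulum chaperone gp96 on which most TLRs depend for folding, rose from 872 ± 86.0 to 1203 ± 113 CPM (0.46 on the log2 scale, SE 0.09, adjusted p = 0.00269, edgeR). Cd180, a TLR4-like receptor without a signalling domain, fell from 39.4 ± 5.82 to 26.0 ± 2.34 CPM (-0.60, SE 0.13, adjusted p = 0.0044). Tram1 fell by 0.32 on the log2 scale (adjusted p = 0.0327), and 6 of the 9 fits with a library left out did not call it (wild type library 1, 3 or 4 or knockout library 1, 2 or 5, adjusted p = 0.0558 to 0.0983), nor did scaling by library totals (0.122). Tram1 encodes a translocon protein and is not the adaptor TRAM. Unc93b1, the carrier of endosomal TLRs, and Cd14, the coreceptor for lipopolysaccharide, were looked up after the values were seen. Unc93b1 was at 286 and 285 CPM on average (-0.0037), and Cd14 at 234 and 356 CPM (0.61, adjusted p = 0.0927, edgeR).

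Of 21 tested kinases and ubiquitin enzymes, 7 were higher and 1 lower (33.3% and 4.76%, against 8.97% and 11% of all tested genes). Ikbke, the interferon-inducing kinase IKK-epsilon, rose from 11.3 ± 4.08 to 25.8 ± 8.69 CPM (SD, n = 4 and 5; 1.2, SE 0.26, adjusted p = 0.00561, edgeR). It was at 7.67 to 16.3 CPM in wild type against 18.8 to 41.0 CPM in knockout, with library 3 at the top. Traf6, the ubiquitin ligase next to MyD88 and the IRAK kinases, rose by a log2 fold change of 0.42 (adjusted p = 0.0151, but 0.0723 at equal depth). Peli2, a ubiquitin ligase that acts on IRAK, rose by 0.34 (0.015, but 0.081 after a length correction). Tab1, Tab2, Tbk1 and Ripk1 made up the rest of the 7. Ube2n, the ubiquitin-conjugating enzyme that works with TRAF6, fell by 0.33 on the log2 scale (adjusted p = 0.0244, edgeR), and was not called without wild type library 3 or 4 or knockout library 1, 2 or 3 (0.0508 to 0.0818) or with scaling by library totals (0.125).

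Transcription factors and inhibitors that were called were all higher. Of 8 tested factors 2 were higher and 0 lower (25% and 0%, against 8.97% and 11% of all tested genes). Rel rose from 22.2 ± 2.79 to 36.0 ± 5.44 CPM (0.70, SE 0.14, adjusted p = 0.00305, edgeR). It was at 19.3 to 25.1 CPM in wild type against 30.2 to 44.6 CPM in knockout. Relb, a subunit of the noncanonical NF-kB pathway, rose by a log2 fold change of 0.51 (adjusted p = 0.0236, but 0.0589 to 0.071 without wild type library 1 or knockout library 1 or 2). Of 11 tested negative regulators 3 were higher and 0 lower (27.3% and 0%, against the same shares of all tested genes). The deubiquitinase Cyld rose by 0.40 (adjusted p = 0.017, but 0.0791 after a length correction), the cytokine signalling inhibitor Socs1 by 1.45 (0.0291) and the A20-binding protein Tnip1 by 0.36 (0.0348). Socs1 was not called without wild type library 1 or 4 or knockout library 2, 4 or 5 (0.0713 to 0.0864) or with voom (0.0987). Tnip1 was not called without wild type library 4 or knockout library 1, 2 or 3 (0.0556 to 0.102) or with Xist as a covariate (0.0872).

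Of 17 tested transcripts induced through MyD88 and NF-kB 3 were higher and none lower (17.6% and 0%, against 8.97% and 11% of all tested genes). Il1b, the precursor of interleukin 1 beta, was at 33.6, 25.5, 102 and 43.6 CPM in wild type against 109, 233, 291, 181 and 203 CPM in knockout. Wild type library 3 and knockout library 3 were the highest of their groups, as they were for Tlr2. It differed by 2.0 on the log2 scale (SE 0.48, adjusted p = 0.0221, edgeR, and 0.0503 to 0.0544 without wild type library 4 or knockout library 2 or 5). Nfkbiz, an atypical IkB protein, rose from 13 ± 8.95 to 37.6 ± 11.6 CPM (1.55, adjusted p = 0.0267, and 0.053 to 0.0698 without wild type library 1 or 4 or knockout library 2 or 5 and 0.0567 without a filter on low counts). Plaur, the urokinase receptor, rose by 0.42 (adjusted p = 0.0104). Tnf and Cxcl2, picked once their values were seen, stood at -0.34 and 0.96 on the log2 scale and were not called (adjusted p = 0.774 and 0.379, edgeR).

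Of 10 tested transcripts induced through TRIF or interferon, 2 were higher and none lower (20% and 0%, against 8.97% and 11% of all tested genes). Irf1 rose from 33.4 ± 4.57 to 45.9 ± 4.94 CPM (0.46, SE 0.12, adjusted p = 0.0176, edgeR). Gbp2, an interferon-induced GTPase, rose by 0.62 (0.0481) and was called in 3 of the 9 fits with a library left out; without wild type library 1 or 3 or knockout library 1, 2, 3 or 4 its adjusted p was 0.0738 to 0.127. It was also not called after a length correction (0.0552), with Xist as a covariate (0.107) or at equal depth (0.0876). Ifnb1, the interferon gene downstream of TRIF, did not pass the count filter. Among 9 cytosolic sensors of nucleic acid, of 12 listed, 1 was called (11.1%, against 19.9% of all tested genes). It was Aim2, a DNA sensor, which rose by 0.39 (adjusted p = 0.0389, edgeR). Aim2 was called in 2 of the 9 fits with a library left out (0.0618 to 0.0851 without wild type library 3 or 4 or any 1 knockout library) and not at equal depth (0.0974).

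**Figure D4:**
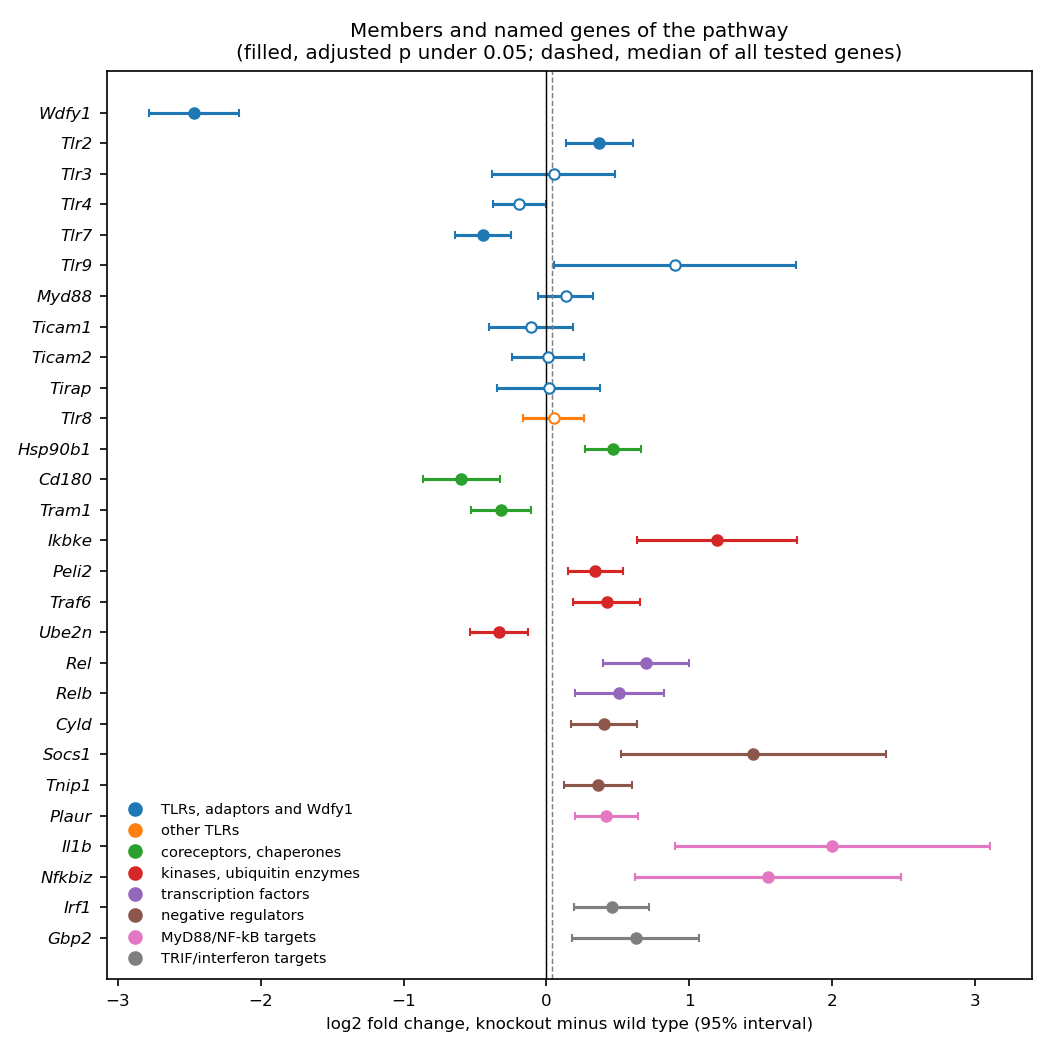
Log2 fold change (x axis, knockout minus wild type, bars are 95% intervals) of the 10 genes and of named genes from 7 pathway lists, coloured by list. Filled points passed an adjusted p of 0.05, open points did not, and the dashed line is the median of all tested genes (0.038). Wdfy1 lies at -2.47, and most filled points of the other lists lie above 0.

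The fold changes of Wdfy1, Tlr7 and Tlr2 kept their signs across settings. Over 19 alternatives Wdfy1 lay between -2.58 and -2.35, Tlr7 between -0.52 and -0.33 and Tlr2 between 0.30 and 0.48. Wdfy1 and Tlr7 lay past the threshold in all 19, and Tlr2 in 14 of them. The sign of Tlr3, Ticam1, Ticam2 and Tirap, whose values lay near 0, changed with the setting.

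**Figure D5:**
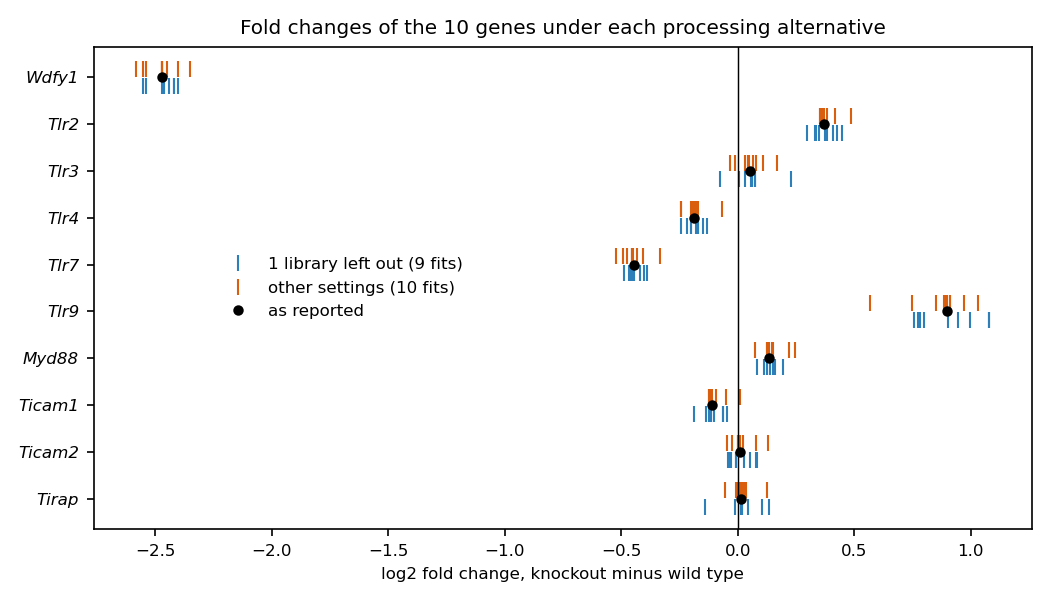
Log2 fold change (x axis, knockout minus wild type) of each of the 10 genes as reported (black points), with 1 library left out (blue ticks, 9 fits) and under 10 other settings (orange ticks). Wdfy1 stays between -2.58 and -2.35, while Tlr3, Ticam1, Ticam2 and Tirap cross 0.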

How the data were processed

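Polyadenylated RNA of FACS-purified alveolar macrophages was sequenced in 9 libraries (4 wild type, 5 Suz12 knockout). The authors deposited whole-number read counts per Entrez gene, made with featureCounts on mm10 per the submitters' processing notes. Aligner, annotation and use of strand were not given in the sources used here. All 9 single tables equalled the joint table of 27179 genes, and 25275 identifiers had a symbol. Counts were fitted as deposited with edgeR 4.0.16 in R 4.3.3: robust quasi-likelihood test, TMM scaling, filterByExpr, Benjamini-Hochberg adjustment over 12840 genes, threshold 0.05. CPM values are TMM-scaled. TPM was computed from counts and the deposited gene lengths. Log2 CPM used a prior count of 2. Library values and marker sums were compared by two-sided exact permutation tests with scipy 1.17.1. The 10 genes and all gene lists were chosen with earlier results of these data known. Named genes were the 10 genes and Suz12; the 3 genes with the smallest adjusted p in each direction of each pathway list, or its most abundant gene; all WD/FYVE relatives and substrain genes; tested genes within 500 kb of Wdfy1; and the 5 most like it among genes with a mean log2 CPM of 1 or more, without predicted gene models. Alternatives were DESeq2 1.42.0, limma 3.58.1 (voom), other scaling, other filters, a length correction, Xist as a covariate, equal depth, a replicate block and each library left out. The code was tested on simulated counts. Promoter sequences and coordinates are those of RefSeq on GRCm38. Tlr9 rested on 37 to 267 counts per library, the fewest of the 10 genes.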

Additional observations from a re-analysis of the deposited data

Results flagged for a closer look

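In 92 groups of 4 or 5 libraries (46 named genes in each group), 3 held a library far from the others; chance alone marks about 1 in 20 groups. Tlr3 was highest in knockout library 3, at 11.7 CPM, where the other knockout libraries held 9.63 to 10.2 CPM. Plaur, the urokinase receptor, was also highest in knockout library 3, at 671 CPM against 473 to 493 CPM. Syne1, one of the genes most like Wdfy1, was lowest in wild type library 3, at 59.8 CPM against 80.0 to 84.6 CPM.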

How the results depend on the processing

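Over 52 results and 19 alternatives, 988 values were recomputed, of which 860 stayed the same, 31 changed sign, 75 lost a call, 6 gained one and 16 counts moved. A fold change stayed the same if it kept its direction and its side of the threshold. A count of genes stayed the same if it lay within a fixed ratio of the reported count. Scaling by library totals gave 1960 genes higher (1013 lower), 2 of the 10 genes higher and 1 other pathway gene lower, and moved the median of all genes from 0.038 to 0.15; of all calls 65.9% were then higher, against 45.0% as reported. A length correction gave 871 genes lower, with 58.1% of calls higher. With Xist as a covariate 0 of the 10 genes were higher. The replicate numbers did not pair the libraries: deviations of same-numbered libraries correlated at 0.036, 0.032, -0.057 and 0.11, and 1 of 4 wild type and 1 of 4 knockout libraries correlated best with their own number. With a replicate block, which leaves out knockout library 5, 741 genes were higher and 1121 lower, 12 other pathway genes were higher and 3 lower, and Suz12 stood at -2.15; of the named genes Traf6, Relb, Socs1, Irf1, Gbp2, Aim2 and Mrpl44 were then not called (adjusted p = 0.0507 to 0.126). With 1 library left out, 772 to 1434 genes were higher and 1074 to 1521 lower, 0 to 1 of the 10 genes were higher and 2 to 2 lower, 10 to 27 other pathway genes were higher and 1 to 4 lower, and Suz12 lay between -2.19 and -1.97.

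Signs changed for log2 fold changes near 0. Scaling by totals gave Ticam1 0.0081, Wdfy4 0.077 and Ide 0.11; no filter gave Ide 0.0083; voom gave Tirap -0.0076; the length correction gave Tlr3 -0.013, Ticam2 -0.025 and Tirap -0.055; Xist gave Tlr3 -0.031 and Tirap -0.00020; equal depth gave Ide 0.068; the replicate block gave Ticam2 -0.048. With 1 library left out the ranges were -0.052 to 0.049 for Ide, -0.040 to 0.084 for Ticam2, -0.14 to 0.14 for Tirap, -0.077 to 0.23 for Tlr3, -0.085 to 0.011 for Wdfy4, -0.013 to 0.11 for Tlr8, -0.0093 to 0.21 for Nnt and -0.076 to 0.21 for Entpd4b. The cause of these changes was not tested. Tlr9, with as few as 37 counts, was the member most limited by depth.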
